A study of Mus musculus with 18 samples.

Results

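Induction of a satellite-targeted repressor for 24 h was followed in mouse embryonic fibroblasts (MEF) by total RNA sequencing. The comparison took the 3 induced libraries of the repressor line against the 3 uninduced libraries of the same line, which made 6 of the 18 libraries of the series. All 16216 genes that passed a filter on low counts, of 47937 gene IDs in the deposited table, were described. The induced cells received 100 ng/ml doxycycline for 24 h and expressed dCas9-KM, a catalytically dead Cas9 that the submitters describe as a transcriptional repressor aimed at MSR repeats. The uninduced cells carried the same inducible construct and received no doxycycline. The nearest comparison group was a line with inducible dCas9-control, which names no effector, with 3 uninduced libraries and 3 libraries induced with 10 ng/ml doxycycline for 24 h. An activator line, dCas9-VPR induced with 10 ng/ml for 6 h, entered the fit and is not compared here. All cells grew in tet-free serum with hygromycin. The repressor line received a higher dose than the control line, so a difference between these lines cannot be told apart from a difference in dose. The labels do not say whether a line was 1 clone or whether the 3 libraries of a group came from separate cultures. The p-values therefore reflect the variation among these libraries alone, and that may be technical.

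Major satellite repeats (MSR) are long tandem arrays of a short AT-rich unit that fill the pericentromeric heterochromatin of mouse chromosomes. This chromatin carries histone H3 lysine 9 methylation and HP1 proteins, which keep the arrays largely silent, and low levels of satellite RNA are made from both strands. A dCas9 with its guide binds DNA without cutting it and can bring an attached protein to the bound repeat. Fibroblasts are the cells that make and remodel collagen-rich matrix, and their gene expression follows growth factors, cell tension and nutrient supply.

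The repeat is shown because the construct was aimed at it. In the spliced transcript Gm26870-201 of the GENCODE M21 annotation, which lies on the minus strand at chr9:3000282-3018084 (GRCm38), the repeat unit was 234 bases long. The copy printed here was 97.44% identical to the copy that follows it, and the capitals mark the 6 bases that differed.
satellite unit: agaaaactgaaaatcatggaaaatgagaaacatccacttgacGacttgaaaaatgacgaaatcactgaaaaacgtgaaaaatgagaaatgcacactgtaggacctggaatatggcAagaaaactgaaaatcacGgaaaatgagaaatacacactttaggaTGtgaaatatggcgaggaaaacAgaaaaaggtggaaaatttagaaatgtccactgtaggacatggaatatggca

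Reads from this repeat were followed through 13 annotated gene models of which at least 50% was covered by satellite words of 15 bases. The models are near-identical, so only their sum is used as a readout of the target. Levels are given in CPM, counts scaled to a common library size of 1000000 with TMM factors. The sum was 6.42, 5.5 and 5.92 CPM in the uninduced libraries and 0.845, 0.747 and 0.901 CPM in the induced libraries. The groups did not overlap, and the induced libraries held only 14, 15 and 17 counts. The mean was 7.15-fold lower on induction, where an exact two-sided permutation test gave p = 0.1, the smallest value that 3 against 3 libraries allow. In the line with dCas9 alone the sum was 7.02 ± 1.05 CPM uninduced and 2.22 ± 0.647 CPM induced (SD, n = 3), 3.15-fold lower. Of the single models, Gm10800 (chr2:98666547-98667301, minus strand) passed the test, at 4.16, 3.4 and 3.31 CPM uninduced and 0.302, 0.448 and 0.265 CPM induced. Its log2 fold change was −3.38 with an adjusted p of 0.0167, and the call was lost without any 1 of the induced libraries (highest adjusted p = 0.0613). Because near-identical copies share its reads, its own level is uncertain.

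Many genes changed by a small amount on induction. Genes were tested with edgeR (quasi-likelihood, Benjamini-Hochberg over all 16216 genes) at an adjusted p of 0.05, which called 845 genes higher and 745 lower, which was 9.81% of the tested genes (5.21% higher and 4.59% lower). "Rose" and "fell" below mean past that threshold, a log2 fold change is induced over uninduced, and SE is its standard error. Among the genes called, the median size of the log2 fold change was 0.20. Of the 845 genes that rose, 223 rose at least 1.25-fold, 50 at least 2-fold and 10 at least 3-fold. Of the 745 that fell, 168 fell at least 1.25-fold, 23 at least 2-fold and 7 at least 3-fold. The median over all tested genes was −0.001 with TMM, which centres the changes, and 0.025 with total counts. The split depended on the scaling: TMM gave 53.1% of the calls as higher, and scaling by total counts alone gave 73.4%, with 407 genes lower. Leaving out induced library 2 reduced the genes lower to 482. Leaving out induced library 1, which stood apart from the other libraries on the second principal component of the 6 (19.2% of the variance), left 643 genes higher and 610 lower. The first component, with 30.3% of the variance, separated the induced from the uninduced libraries.

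The share of genes that passed was larger at higher levels. Of the 3198 genes with a mean below 1 CPM, 1.56% were called, against 5.07% of 4044 genes between 1 and 10 CPM, 12.4% of 6813 between 10 and 100 CPM and 22.5% of 2161 above 100 CPM. The median size of a called change shrank in the same order, from 1.34 to 0.56, 0.20 and 0.13 on the log2 scale. The depth behind these values was 16275552 to 21898462 counts per library. The filter on low counts ran over all 6 groups of the series, so a gene could pass it through other groups. Actc1, for example, was tested with 0 counts in the 6 repressor libraries and could not be called. Such genes lower the share below 1 CPM and the shares over all tested genes. Without regard to a test, 2178 genes had all 3 induced libraries above all 3 uninduced and 2150 had all 3 below, 26.7% of the tested genes together.

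**Figure D1:**
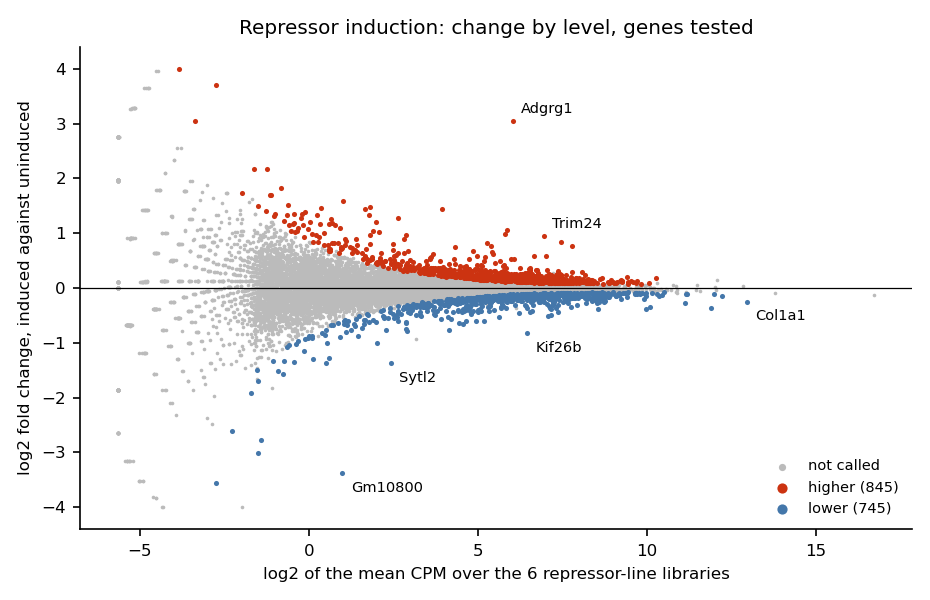
Each point is 1 of the 16216 tested genes, with the log2 of its mean CPM over the 6 repressor-line libraries on the x axis and the log2 fold change on induction on the y axis. The 845 genes called higher and 745 called lower form a band that narrows towards high levels, with Adgrg1, Trim24, Kif26b, Sytl2, Col1a1 and Gm10800 labelled. Means below 0.02 CPM and 4 points beyond a change of 4 are drawn at the edge.

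The line with dCas9 alone changed far less under its lower dose: 41 genes rose and 34 fell, 0.463% of the tested genes. At an unadjusted p of 0.05 the counts were 1741 genes in that line and 3411 in the repressor line. The 2 inductions share no library. Of the genes higher, 20 were called in both, which was 2.37% of the repressor list and 48.8% of the control list. Of the genes lower, 16 were called in both, 2.15% and 47.1% of the lists, and 2 genes were called in opposite directions. The difference between the 2 changes was tested as an interaction, which called 193 genes higher and 249 lower in the repressor line (2.73%). The interaction shares its libraries with both inductions, so its values are given beside theirs and support nothing further.

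Some calls rested on 1 library. Where a named gene lost its call without 1 of the 6 libraries, the text says so, and every other gene named as risen or fallen, apart from those of the closing observations, kept its call when any 1 of the 6 libraries was left out.

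The rises with the smallest p had little spread within each group. Trim24, a chromatin-reading transcription cofactor (chr6, GRCm38), was at 84, 84.6 and 84.9 CPM uninduced and at 162, 163 and 164 CPM induced. The libraries within each group were nearly equal, and the groups lay 1.93-fold apart (log2 0.95, SE 0.03, adjusted p = 1.37e-38). With dCas9 alone Trim24 had a log2 fold change of 0.02 (adjusted p = 0.894). Slc29a3, a nucleoside transporter of lysosomes, was at 37.3, 38.2 and 37.7 CPM before and at 80.8, 76.6 and 78.9 CPM after induction (log2 1.06, adjusted p = 1.09e-35). The control line gave a log2 fold change of 0.12 for it. Src, a tyrosine kinase of focal adhesions, rose from 103, 104 and 104 to 158, 155 and 156 CPM (log2 0.59, adjusted p = 2.87e-27). Sgms2, a sphingomyelin synthase of the cell surface, rose from 27.4, 29.4 and 27.4 to 48.9, 49.2 and 50.3 CPM (log2 0.82, adjusted p = 7.65e-24).

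The falls with the smallest p included matrix genes at high levels. Kif26b, an atypical kinesin, was at 107, 115 and 115 CPM uninduced and at 67.1, 60.5 and 63.3 CPM induced (log2 −0.82, SE 0.04, adjusted p = 1.83e-29). Cemip, which takes part in the breakdown of hyaluronan, fell from 195, 192 and 185 to 141, 140 and 141 CPM (log2 −0.44, adjusted p = 5.6e-21). Timp3, an inhibitor of matrix metalloproteinases, fell from 1115, 1167 and 1136 to 891, 890 and 851 CPM (log2 −0.38, adjusted p = 5.12e-21). The gene model AC149090.1 fell from 167, 170 and 165 to 115, 121 and 121 CPM (log2 −0.49, adjusted p = 2.38e-23). It also fell in the line with dCas9 alone (log2 −0.20, adjusted p = 2.3e-05), by less (interaction −0.29, adjusted p = 6.71e-07).

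The largest rises and falls were ranked among called genes at a mean of at least 1 CPM whose groups did not overlap. By this rule the largest rise was that of Adgrg1, the adhesion receptor GPR56 (chr8:94974751-95014217, plus strand, GRCm38). Its libraries were at 14.2, 14.2 and 14 CPM uninduced and at 120, 115 and 114 CPM induced, an 8.23-fold rise (log2 3.04, SE 0.06, adjusted p = 1.25e-57). Every other gene among the 12 largest rises started below 10 CPM. Plb1, a phospholipase, rose from 1.57, 1.92 and 1.57 to 4.77, 4.53 and 4.66 CPM (log2 1.45, adjusted p = 3.72e-10). Syt13, of the synaptotagmin family of membrane traffic proteins, rose from 3.62, 3.71 and 3.42 to 8.57, 8.86 and 8.75 CPM (log2 1.28, adjusted p = 4.03e-14). Mmp9, a secreted gelatinase, rose from 0.539, 0.805 and 0.706 to 1.81, 2.24 and 1.64 CPM (log2 1.47, adjusted p = 1.72e-05). The remaining rises were Adgrf5, Padi3, Gstm5, Fam71f1, Palm3, Tigit, Ctsw and Hspa1b, with log2 fold changes between 1.20 and 1.58. Tigit is a receptor of lymphocytes and Ctsw a lymphocyte cathepsin. Hspa1b encodes an inducible HSP70 and has a near-identical copy, so its reads may be shared.

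After Gm10800, the largest falls by the same rule were of weakly expressed genes, and genes below a mean of 1 CPM were not ranked. Sytl2, a partner of Rab27 in vesicle traffic, was at 7.25, 7.78 and 8.04 CPM uninduced and at 3.26, 2.79 and 2.86 CPM induced (log2 −1.38, SE 0.14, adjusted p = 4.91e-13). Its uninduced level already exceeded that of the line with dCas9 alone (log2 1.72, adjusted p = 2.18e-15), a comparison that called 140 genes higher and 113 lower (1.56%) and shares the uninduced repressor libraries. Angptl7, a secreted angiopoietin-like protein, fell from 2.01, 2.24 and 1.9 to 0.604, 0.747 and 1.01 CPM (log2 −1.37, adjusted p = 0.000862). Col14a1, a collagen of fibril surfaces, fell from 1.52 CPM in each library to 0.906, 0.448 and 0.53 CPM (log2 −1.30, adjusted p = 0.00137). Pcdhb20, a clustered protocadherin, fell by 0.89 on the log2 scale (adjusted p = 0.00169). Abi3bp, Pappa and Sgpp2 passed narrowly (adjusted p 0.0292, 0.033 and 0.0156). Abi3bp lost its call without any 1 library other than induced library 2. Pappa lost it without uninduced library 1 or 3 or induced library 1 or 2, and Sgpp2 without uninduced library 1 or 2 or induced library 3. Like Sytl2, Col14a1 and Sgpp2 started above the line with dCas9 alone (edgeR log2 1.41 and 1.62, adjusted p 0.00253 and 7.75e-05). Their uninduced means in that line were 0.543 and 0.558 CPM, beside 0.628 and 0.993 CPM in the induced repressor line. How much of these falls comes from a raised start was not tested.

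**Figure D2:**
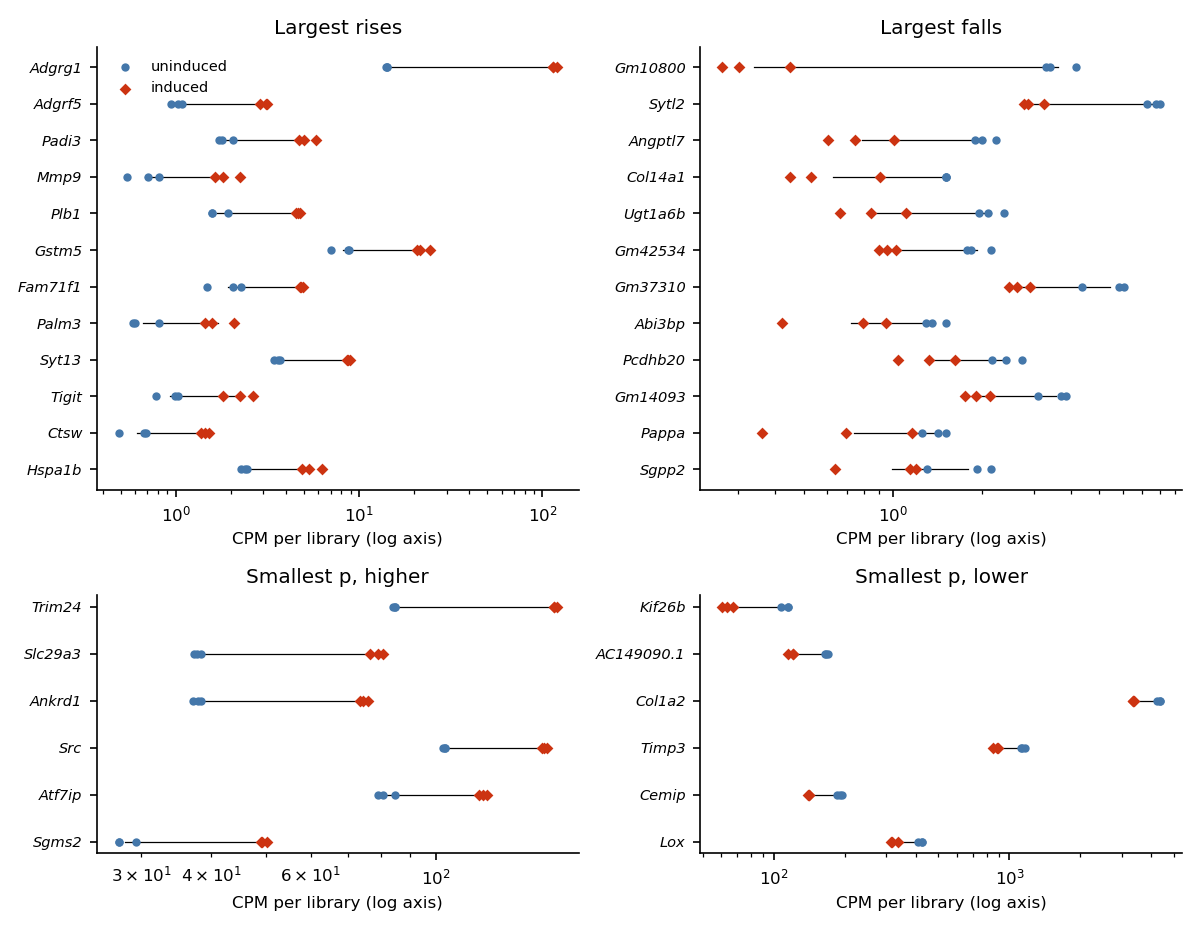
CPM in each of the 6 repressor-line libraries on log axes for the 12 largest rises, the 12 largest falls and the 6 further genes with the smallest p in each direction. Each point is 1 library, blue circles uninduced and red diamonds induced, and each black line joins the group means. No induced library lies among the uninduced ones in any row, the rule by which these genes were chosen.

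Some of these falls shared a locus with other models. The UDP-glucuronosyltransferase Ugt1a6b fell from 1.96, 2.1 and 2.39 to 0.664, 0.847 and 1.11 CPM (log2 −1.27, adjusted p = 3.3e-05). It overlaps further models of the Ugt1a cluster that share the last exons, and 7 of these were also called lower, so which first exon lost reads is uncertain. Gm42534 lies within Slit2, which encodes a secreted guidance protein and fell from a mean of 219.6 to 181.9 CPM (log2 −0.27, adjusted p = 4.48e-12). Gm37310 lies within Slc1a3, a glutamate and aspartate transporter, which fell from 43.8 to 28.7 CPM (log2 −0.61, adjusted p = 4.26e-15). The reads of such inner models and those of the host gene cannot be told apart. Of 67 models next to or overlapping the 12 largest falls, 17 were lower and 0 higher, and of 50 beside the 12 largest rises, 7 were higher and 2 lower. Over all tested genes 4.59% were lower and 5.21% higher. Of the 17 lower models, 10 overlap the named gene and can share its reads. Deptor, an mTOR-binding inhibitor 48.5 kb from Col14a1, fell from 27.2 to 20.4 CPM (log2 −0.42, adjusted p = 2.49e-06). These host and neighbour genes were chosen after their values were seen.

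Many genes of amino acid supply fell. ATF4 is the transcription factor of the integrated stress response, and it drives genes for amino acid synthesis, transport and charging of tRNA when amino acids are short. Of 26 tested ATF4 target genes, 18 fell and 0 rose, with a median log2 fold change of −0.22 against −0.001 over all genes. Of 15 genes of serine, glycine and one-carbon synthesis, 10 fell and 0 rose (median −0.21). Of 20 cytosolic aminoacyl-tRNA synthetases, which load amino acids onto tRNA, 11 fell and 0 rose (median −0.12). The background was 4.59% of genes lower. Without any 1 library the lower counts were 17 to 18, 10 and 9 to 11. At an unadjusted p of 0.05, 2 ATF4 targets and 0 genes of the other lists were higher, and DESeq2 and limma-voom called 0 higher in each. The lists overlap in some members.

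Short stretches before the start of 5 of these genes are shown because they hold a match to TGATGNAA, the core of the element that ATF4 binds with a partner. The sequences and starts are those of RefSeq on GRCm38.p6, read along the gene from 5′ to 3′, and the capitals mark the match in either orientation.
Asns promoter, chr6:7693210-7693262, minus strand: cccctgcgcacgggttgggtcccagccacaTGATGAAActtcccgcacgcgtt
Pck2 promoter, chr14:55540133-55540190, plus strand: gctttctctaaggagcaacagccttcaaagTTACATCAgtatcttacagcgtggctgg
Gars promoter, chr6:55037941-55037998, plus strand: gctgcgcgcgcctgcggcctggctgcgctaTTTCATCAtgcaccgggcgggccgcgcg
Tars promoter, chr15:11399659-11399703, minus strand: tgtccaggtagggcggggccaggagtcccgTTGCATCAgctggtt
Aars promoter, chr8:111033700-111033757, plus strand: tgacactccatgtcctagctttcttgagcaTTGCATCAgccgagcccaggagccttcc
On either strand of windows from 250 bases before to 50 bases after a start, the motif was found in 9 of 22 ATF4 targets with a window (40.9%), in 5 of 12 tRNA synthetases (41.7%) and in 2 of 12 serine and glycine genes (16.7%). It was found in 4.51% of all 27025 genes with a window. Among all genes called lower 4.4% held it, among all called higher 3.77%, and among all tested 2.76%. A match describes these letters and is not evidence of binding.

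Asns, asparagine synthetase, was at 237, 246 and 244 CPM uninduced and at 194, 187 and 191 CPM induced (log2 −0.35, SE 0.03, adjusted p = 3.54e-17). Trib3, a pseudokinase that damps the ATF4 response, fell from 56.5, 59.9 and 58.3 to 40.5, 39.3 and 40.9 CPM (log2 −0.54, adjusted p = 9.47e-16). Atf5, a bZIP factor induced by the same response, fell from 98.5, 95.2 and 100 to 74.2, 78 and 75.3 CPM (log2 −0.37, adjusted p = 6.76e-14). No induced library of these genes reached an uninduced one. Pck2, the mitochondrial PEP carboxykinase, fell from 93.4, 94.7 and 100 to 77.2, 77 and 75.7 CPM (log2 −0.33, adjusted p = 9.42e-11). Shmt2, the mitochondrial serine hydroxymethyltransferase, fell from 352, 359 and 356 to 304, 308 and 290 CPM (log2 −0.24, adjusted p = 3.72e-11). Aldh18a1, which begins proline synthesis, fell by 0.24. Gars, the tRNA synthetase for glycine, fell from 374, 387 and 381 to 329, 327 and 325 CPM (log2 −0.22, adjusted p = 4.98e-10). Tars and Aars, for threonine and alanine, fell by 0.22 and 0.17 on the log2 scale.

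The uninduced level of this group differed between the lines. Before induction, the repressor line exceeded the line with dCas9 alone at 12 of the 26 ATF4 targets and lay lower at 0. The same uninduced libraries enter the induction, so the levels are given side by side. The summed level of the 26 genes was 2914 to 2983 CPM in the uninduced and 2518 to 2578 CPM in the induced repressor libraries. It was 2726 to 2762 CPM in the uninduced and 2750 to 2805 CPM in the induced libraries of the control line. The induced repressor libraries thus lay below both groups of the control line, and the uninduced ones above both. Induction of dCas9 alone called 0 of the 26 in either direction (7 higher and 0 lower at an unadjusted p of 0.05, and 0 by DESeq2 and limma-voom). The interaction was lower for 15 of the 26, for example Trib3 (−0.61, adjusted p = 2.36e-11) and Asns (−0.38, adjusted p = 7.72e-12). How much of the fall comes from a raised start was not tested.

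**Figure D3:**
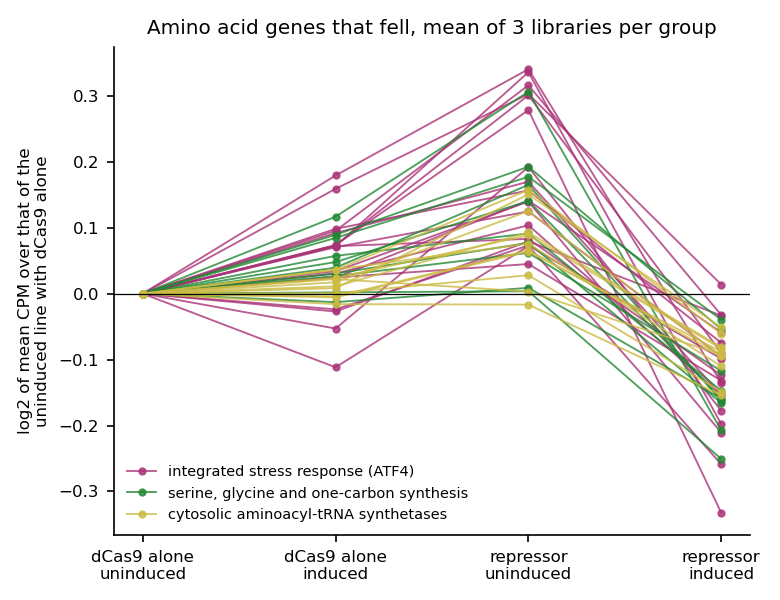
Each line is 1 of the 39 genes of the ATF4, serine and glycine, and tRNA synthetase lists that fell on repressor induction. The y axis is the log2 of the mean CPM of 3 libraries over that of the uninduced line with dCas9 alone, and the x axis gives the 4 groups. Levels in the uninduced repressor line were mostly above 0 and in the induced repressor line below 0, and the genes were chosen by their fall between these 2 groups.

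Fibrillar matrix fell and part of the basement membrane rose. Of 38 tested collagen and fibroblast matrix genes, 17 fell and 4 rose (median −0.11), with 14 to 17 falls when 1 library was left out and 13 with scaling by total counts. Col1a1 and Col1a2 form collagen I, the main fibre of connective tissue. Col1a1 was at 8622, 8730 and 8713 CPM uninduced and at 7364, 7222 and 7338 CPM induced (log2 −0.25, adjusted p = 4.03e-14). Col1a2 was at 4242, 4346 and 4356 CPM before and at 3373, 3343 and 3344 CPM after induction (log2 −0.36, adjusted p = 3.12e-21). Lox, which cross-links collagen, fell from 409, 428 and 425 to 336, 317 and 316 CPM (log2 −0.38, adjusted p = 6.45e-19). The groups of these genes were far apart compared with the spread within them. Loxl4, another enzyme of the lysyl oxidase family, rose from 23.2, 22.5 and 25 to 29.6, 28.9 and 31.6 CPM (log2 0.35, adjusted p = 8.6e-06). With 1 library left out 1 to 3 genes of the list were called higher. In the line with dCas9 alone Col1a1, Col1a2 and Lox had log2 fold changes of −0.02, −0.00 and 0.08. In the interaction 18 matrix genes were lower. Before induction the repressor line exceeded the control line at 5 of the 38 and lay lower at 1 (0.863% and 0.697% over all genes). The list sum was 30910 to 31450 CPM uninduced and 27190 to 27730 CPM induced. In the control line it was 29490 to 30220 and 29810 to 30500 CPM. How much of the fall comes from a raised start was not tested.

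Of 17 basement membrane genes, 6 rose and 1 fell (median 0.06), and 4 to 5 rose when 1 library was left out. For this list the control induction gave a median of 0.08, with 1 gene higher and 0 lower. Its summed level was 3936 to 3974 CPM in the uninduced and 4005 to 4134 CPM in the induced repressor libraries. The control line was at 3921 to 3978 CPM uninduced and 4071 to 4136 CPM induced. By the interaction 0 of the 17 were higher and 1 lower, so these rises were not told apart from the control. Col18a1 rose from 12.4, 12.2 and 11.5 to 17.4, 17.9 and 15.7 CPM (log2 0.50, SE 0.08, adjusted p = 2.02e-06). Lamb2, a laminin chain, and Nid1, which links laminin to collagen IV, rose by 0.22 and 0.17 on the log2 scale. Col4a6 fell by 0.14 (adjusted p = 0.00272), a call lost with scaling by total counts (adjusted p = 0.181). Matrix proteases and their inhibitors moved both ways, with 6 of 23 higher and 5 lower. Adamts9 and Adam9 rose by 0.24 and 0.19, Plaur, the urokinase receptor, rose by 0.24, and Adamts5 and Adam12 fell by 0.17 and 0.23 on the log2 scale.

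Among genes of the contractile cytoskeleton more rose than fell, and targets of cell tension moved both ways. SRF is a transcription factor that follows actin polymerisation and binds the CArG box, and YAP works through TEAD factors and follows cell spreading and stiffness. Of 21 contractile and SRF target genes, 10 rose and 1 fell (median 0.08), with 9 to 10 rises when 1 library was left out, and 15 rose with scaling by total counts. The control induction gave a median of 0.05 for this list, with 2 genes higher and 0 lower. At an unadjusted p of 0.05 it gave 10 higher and 0 lower. The interaction called 1 of the 21 higher and 0 lower, so most of these rises were not told apart from the control. Tagln, an actin-binding protein of smooth muscle and stretched fibroblasts, was at 99.4, 91.3 and 92.5 CPM uninduced and at 120, 118 and 119 CPM induced (log2 0.33, SE 0.04, adjusted p = 2.22e-12). Vcl, the focal adhesion protein vinculin, rose from 797, 786 and 787 to 882, 876 and 848 CPM (log2 0.14, adjusted p = 2.57e-05). Fhl2, a LIM protein of stress fibres, rose in both lines (log2 0.28 and 0.23, with adjusted p 0.000114 and 0.0328, interaction 0.06, adjusted p = 0.849).

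Of 22 YAP and TEAD target genes, 6 rose and 5 fell, and the median was −0.004. Their summed level was 3558 to 3606 CPM in the uninduced and 3694 to 3826 CPM in the induced libraries, so the sum was higher in each induced library. With scaling by total counts 7 rose and 1 fell, and without 1 library 4 to 6 rose and 3 to 5 fell. Ankrd1, an ankyrin repeat protein of the nucleus and sarcomere, was at 37.1, 38.2 and 37.9 CPM uninduced and at 74.3, 73.4 and 76 CPM induced (log2 0.98, SE 0.05, adjusted p = 8.92e-32). Ccn2, a matricellular growth factor, rose from 126, 122 and 126 to 233, 220 and 219 CPM (log2 0.85, adjusted p = 3.04e-08). Ccn1, its relative, rose from 247, 238 and 241 to 304, 294 and 293 CPM (log2 0.30, adjusted p = 8.51e-13) and also rose in the line with dCas9 alone (log2 0.16, adjusted p = 0.000737). The groups of each gene were fully separate. The interaction was 0.80 for Ankrd1 and 0.62 for Ccn2 (adjusted p 5.52e-16 and 0.000183) and 0.13 for Ccn1 (adjusted p = 0.0827). Ccdc80, F3 and Amotl2 fell by 0.24, 0.21 and 0.12, and Ccdc80 and Amotl2 lost their calls with scaling by total counts (adjusted p 0.0796 and 0.15).

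Stretches before 4 starts are shown because they hold the letters read by these factors in other settings, GGAATG (or its reverse CATTCC) for TEAD and the CArG box for SRF, again in capitals.
Ankrd1 promoter, chr19:36119942-36120084, minus strand: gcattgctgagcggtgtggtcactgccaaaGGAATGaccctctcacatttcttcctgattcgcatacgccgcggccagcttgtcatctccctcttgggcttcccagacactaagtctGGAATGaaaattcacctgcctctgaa
Ccn1 promoter, chr3:145650063-145650118, minus strand: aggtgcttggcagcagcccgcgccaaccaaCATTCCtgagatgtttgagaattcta
Vcl promoter, chr14:20929148-20929200, plus strand: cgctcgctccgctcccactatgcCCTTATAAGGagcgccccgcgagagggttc
Fhl2 promoter, chr1:43163963-43164022, minus strand: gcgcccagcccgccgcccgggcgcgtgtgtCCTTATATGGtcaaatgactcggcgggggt
On either strand, GGAATG was found in the windows of 8 of 15 YAP targets (53.3%) and 8 of 18 contractile genes (44.4%), and in 16.6% of all genes with a window. The CArG box was found in 6 of 18 contractile genes (33.3%) and in 1.81% of all genes with a window. Among all genes called higher, 16.9% held GGAATG and 3.31% a CArG box, against 14.5% and 1.6% of all tested genes. Words of 15 bases from the satellite were found for 0.0629% of all genes with a window and in none of the windows of the 664 genes called higher and 546 called lower that had one.

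ERK, the last kinase of the Ras pathway, induces its own inhibitors, and their RNA is a common readout of ERK activity. Of 14 such feedback genes 9 rose and 0 fell (median 0.22), with 7 to 10 rises when 1 library was left out. At an unadjusted p of 0.05, 0 were lower, and DESeq2 and limma-voom called 0 lower. Dusp6, a phosphatase of ERK, rose from 64.8, 69.5 and 66.1 to 90.6, 87 and 80.6 CPM (log2 0.36, SE 0.04, adjusted p = 4.7e-12). Phlda1 and Dusp4 rose by 0.25 and 0.21 on the log2 scale. Before induction the repressor line lay below the control line at 4 of the 14, Dusp6 among them (log2 −0.20, adjusted p = 0.00068). The summed level of the list was 663 to 675 CPM in the uninduced and 746 to 760 CPM in the induced repressor libraries. In the control line it was 716 to 741 CPM uninduced and 722 to 766 CPM induced, a range that holds the induced repressor sums. The interaction called 4 of the 14 higher and 0 lower. How much of the rise comes from a lower start was not tested. Of 26 immediate early genes, which respond within minutes to growth factors, 6 rose and 1 fell (median 0.13), with 4 to 7 rises when 1 library was left out. Maff rose from 17.1, 14.7 and 15.7 to 24.5, 21.7 and 23 CPM (log2 0.54, adjusted p = 3.59e-08), Egr1 and Jun rose by 0.18 and 0.25, and Zfp36l1, which promotes decay of AU-rich messages, fell by 0.21.

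Several secreted signals fell. Of 25 growth factor and cytokine ligands expressed by fibroblasts, 9 fell and 1 rose (median −0.11), with 8 to 9 falls when 1 library was left out. Cxcl12, a chemokine for CXCR4, was at 2384, 2454 and 2463 CPM uninduced and at 2054, 2004 and 2018 CPM induced (log2 −0.27, SE 0.03, adjusted p = 3.36e-14). Cxcl1, a neutrophil chemokine, fell from 20.9, 21.6 and 24.1 to 15, 14.7 and 14.9 CPM (log2 −0.57, adjusted p = 2.72e-08). Nrg1, a ligand of ErbB receptors, fell from 37, 35.6 and 36.9 to 27.5, 27.9 and 28 CPM (log2 −0.39, adjusted p = 2.72e-08). Pdgfb, a PDGF chain, was the member that rose, by 0.26 (adjusted p = 0.000399). With dCas9 alone Cxcl12, Cxcl1 and Nrg1 had log2 fold changes between −0.01 and 0.09. Before induction the repressor line exceeded the control line at 3 of the 25 ligands and lay lower at 1. The list sum was 4212 to 4333 CPM uninduced and 3676 to 3766 CPM induced. In the control line it was 4037 to 4116 and 4096 to 4115 CPM. How much of the fall comes from a raised start was not tested.

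Among TGF-beta and BMP response genes, 4 of 21 rose and 1 fell. The ligand Tgfb1 rose from 26.6, 25.7 and 27 to 35.6, 35.4 and 35.7 CPM (log2 0.43, SE 0.05, adjusted p = 2.03e-09). Skil, an inhibitor of SMADs, rose by 0.16, while Tgif1, a corepressor of SMADs, fell by 0.19 on the log2 scale. Of 12 Wnt response genes 4 fell and 1 rose (median −0.13). The secreted Wnt antagonists Sfrp2 and Sfrp1 fell by 0.42 and 0.43, and the receptor Fzd1 by 0.26. Sfrp2 was at 31.6, 32.6 and 34.7 CPM uninduced and at 25.4, 23.8 and 24.8 CPM induced. Of 14 Notch and Hedgehog genes 3 rose and 2 fell, and with 1 library left out 1 to 2 rose. Ptch1, the Hedgehog receptor and target, fell by 0.23 (adjusted p = 0.000194).

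Adhesion G protein-coupled receptors, a family of 27 genes with long extracellular parts, did not move as a family. Of the 13 that could be tested, 4 rose, 3 fell and 6 did not pass. Besides Adgrg1, Adgrf5 rose from 1.08, 0.939 and 1.03 to 2.9, 3.09 and 3.13 CPM (log2 1.58, SE 0.22, adjusted p = 3.84e-08). Adgre5, the receptor CD97, rose from 13.3, 16.2 and 15.5 to 20, 21 and 19.9 CPM (log2 0.44, adjusted p = 1.76e-06), and Adgrb2 from 10.8, 11.9 and 10.9 to 14.7, 15 and 13.7 CPM (log2 0.37, adjusted p = 0.00103). Adgrl2, a latrophilin, fell from 159, 162 and 154 to 123, 122 and 123 CPM (log2 −0.37, adjusted p = 1.85e-16). Adgrl2 fell in the line with dCas9 alone too (log2 −0.17, adjusted p = 0.00038), by less (interaction −0.20, adjusted p = 0.0015). Adgrg2 fell from 66.9, 68 and 66.9 to 58.7, 57.5 and 55.6 CPM. Adgrl3 fell at a low level, from 0.931, 0.76 and 0.652 to 0.241, 0.249 and 0.318 CPM (log2 −1.52, adjusted p = 0.00781), and its call was lost without uninduced library 1 (adjusted p = 0.0516) and with DESeq2 (adjusted p = 0.0771). Before induction the Adgrg1 level did not differ detectably between the repressor and control lines (log2 −0.01, SE 0.08).

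Detoxifying enzymes also moved both ways. Of 17 tested glutathione transferases, 3 rose and 2 fell. Gstm5 was at 8.72, 7.07 and 8.8 CPM uninduced and at 20.6, 21.4 and 24.4 CPM induced (log2 1.44, SE 0.09, adjusted p = 2.01e-24). It lies in a cluster of near-identical Gstm genes and overlaps the antisense model 4933431E20Rik, so its reads are uncertain. That model rose as well (log2 0.46, adjusted p = 0.00986), a call lost without uninduced library 3 or induced library 1. Gstt1 rose from 2.69, 2.28 and 2.34 to 4.95, 5.18 and 4.98 CPM (log2 1.05, adjusted p = 2.62e-07), and Gstp1 rose by 0.29. The microsomal Mgst1 fell from 25.2, 25.7 and 29.4 to 18.2, 19.8 and 20.9 CPM (log2 −0.44, adjusted p = 2.11e-07), and Gsto1 fell by 0.23. Targets of NRF2, the regulator of antioxidant genes, gave 10 lower and 2 higher of 19 (median −0.11). That count was not stable: it was 4 to 8 when 1 library was left out, the fewest without uninduced library 3, and 5 with scaling by total counts. Osgin1, Gclc, which begins glutathione synthesis, and Srxn1 fell by 0.38, 0.21 and 0.17 on the log2 scale.

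A few genes of heterochromatin itself rose. Of 44 heterochromatin and silencing factors, 5 rose and 0 fell, against a background of 5.21% higher and 4.59% lower, and the median was 0.006. That background includes weakly expressed genes, which were seldom called. Of 6813 genes between 10 and 100 CPM 477 rose, and of 2161 above 100 CPM 218 rose. At an unadjusted p of 0.05, 3 were lower, and DESeq2 and limma-voom called 0 lower. Atf7ip, a partner of the H3 lysine 9 methyltransferase SETDB1, was at 80.6, 79.1 and 84.9 CPM uninduced and at 121, 120 and 123 CPM induced (log2 0.58, SE 0.03, adjusted p = 1.35e-24). Mbd1, a methyl-CpG binding protein that works with these factors, rose from 22.4, 21.5 and 20.9 to 28.9, 29.8 and 26.8 CPM (log2 0.40, adjusted p = 3.55e-07). Fam208a, a subunit of the HUSH silencing complex, rose from 70.3, 71.6 and 72 to 82.8, 78.2 and 82.2 CPM (log2 0.18, adjusted p = 0.000284). The other 2 rises were Hdac1 (log2 0.18, adjusted p = 0.000412) and Setdb1 (log2 0.10, adjusted p = 0.049), and Setdb1 lost its call without any 1 library other than uninduced library 1. With dCas9 alone Atf7ip had a log2 fold change of −0.00 and Mbd1 of 0.02.

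Other chromatin groups had calls in both directions or none. Of 29 polycomb genes 2 rose and 1 fell (1 to 3 higher with 1 library left out), and Bmi1, a subunit of PRC1, was the fall (log2 −0.16). Of 337 Zfp zinc finger genes, many of which bind repeats, 9 rose and 10 fell, below the background share in both directions. With 1 library left out 3 to 9 fell, the fewest without uninduced library 2, and with scaling by total counts 14 rose and 2 fell. Zfp37 and Zfp467 rose by 0.64 and 0.36. Zfp809, which recognises a retroviral primer binding site, rose from 17.4, 16.1 and 15.5 to 20.5, 20 and 20.7 CPM (log2 0.32, adjusted p = 0.000726). Zfp503 fell from 20.8, 20 and 20.1 to 13.3, 14 and 14.7 CPM (log2 −0.53, adjusted p = 3.03e-08). Of 24 imprinted genes 4 rose and 4 fell, above the background share in both directions, and 2 to 4 rose with 1 library left out, the fewest without induced library 1. Rian and Meg3, noncoding RNAs of 1 imprinted cluster, rose by 0.32 and 0.26, and Peg10 fell from 273, 264 and 276 to 222, 218 and 214 CPM (log2 −0.31, adjusted p = 1.34e-14). Peg10 fell in the control line too (log2 −0.16, adjusted p = 0.000506). Of 19 Hox genes edgeR called 0, with 1 in each direction at an unadjusted p of 0.05, and DESeq2 and limma-voom called 0.

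The cell cycle lists hardly changed. Of 40 G1/S and DNA replication genes edgeR called 0, with 2 in each direction at an unadjusted p of 0.05, and the median was 0.01. DESeq2 and limma-voom called 0 of them. Of 39 genes of G2 and mitosis 3 rose and 1 fell. Anln, a scaffold of the cleavage furrow, rose by 0.11, and Bub1b, a checkpoint kinase, fell by 0.13 on the log2 scale. In the line with dCas9 alone 7 of the 39 fell, and the interaction called 10 higher. Replication-dependent histone genes gave 8 lower and 0 higher of 62 (median −0.09), and 4 to 8 lower when 1 library was left out, the fewest without induced library 1. Hist2h4 and Hist1h3d fell by 0.21 and 0.25, and in the control line by 0.24 and 0.17 (adjusted p 2.3e-05 and 0.02). The control induction gave a median of −0.13 for this list, with 3 genes lower and 0 higher. At an unadjusted p of 0.05 it gave 22 lower and 0 higher, against 16 and 0 in the repressor line. The interaction called 0 of the 62 in either direction, so these falls were not told apart from the control. Such histone messages lack a poly(A) tail and are seen in total RNA.

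Some genes of ribosome biogenesis fell, while most lists of ribosomal and mitochondrial genes were near the background of 4.59% lower. Of 29 ribosome biogenesis genes 8 fell and 0 rose (median −0.09). The count was 5 to 8 when 1 library was left out and 4 with scaling by total counts. The interaction called 2 of the 29 lower and 0 higher, and the control induction had a median of −0.02 with 0 called. Npm1, a nucleolar chaperone, fell from 1035, 1027 and 1034 to 869, 923 and 920 CPM (log2 −0.19, adjusted p = 4.54e-08), and Polr1b, of RNA polymerase I, and Noc2l fell by 0.19 and 0.16. Of 80 cytosolic ribosomal protein genes 4 fell, near the background of all tested genes, and 2 to 3 did with 1 library left out. Rplp0 was at −0.13 and Rpl10 at −0.11. Above 100 CPM the share was larger, with 269 of 2161 genes lower. Of 14 mitochondrial chaperones and proteases 3 fell, among them Hspa9 from 634, 661 and 651 to 562, 567 and 563 CPM (log2 −0.20, adjusted p = 1.92e-09) and Hspd1 by 0.14. Of 77 mitochondrial ribosomal proteins 4 fell (2 to 5 with 1 library left out), and of 72 nuclear genes of oxidative phosphorylation 4 fell, which became 1 to 2 with 1 library left out. Of 15 genes of the mitochondrial genome edgeR called 0, as did DESeq2 and limma-voom, and 0 passed an unadjusted p of 0.05.

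The other stress and metabolic lists are given against the background of 5.21% higher and 4.59% lower. Of 18 heat shock genes 1 rose, Hspa1b, from 2.4, 2.28 and 2.44 to 6.28, 4.88 and 5.3 CPM, and 2 fell, Fkbp4 by 0.13 and Hsp90ab1 by 0.10 on the log2 scale. Of 19 genes of the unfolded protein response 1 rose (0 to 2 with 1 library left out) and 0 fell, with 2 lower at an unadjusted p of 0.05 and 0 by DESeq2 and limma-voom. Of 25 p53 targets 4 fell and 0 rose, with 2 to 4 falls when 1 library was left out, the fewest without uninduced library 2. Sesn2, which is also induced by ATF4, fell from 48.5, 50.4 and 53.3 to 40.9, 36.6 and 38.6 CPM (log2 −0.39, adjusted p = 4.1e-10), and Plk2 fell by 0.14. Of 6 metallothionein and zinc transport genes 3 fell. Mt1, a zinc-buffering metallothionein, fell from 31.1, 31.5 and 31.3 to 22.9, 23.5 and 24 CPM (log2 −0.41, adjusted p = 2.72e-08), and Slc39a10, a zinc importer, from 172, 179 and 182 to 138, 144 and 135 CPM (log2 −0.36, adjusted p = 1.57e-15). Of 23 genes of cholesterol synthesis and uptake 4 fell, and 1 to 4 did with 1 library left out, the fewest without induced library 2. Of 26 fatty acid genes 5 rose, and 2 to 4 did with 1 library left out. Ppard, a nuclear receptor for fatty acids, rose by 0.20 and Acacb, an acetyl-CoA carboxylase, by 0.50. Of 28 glycolysis and hypoxia genes 2 rose and 4 fell (1 to 3 in each direction with 1 library left out), and Hk1, a hexokinase, rose by 0.14. Of 31 genes of lysosomes and autophagy 1 rose and 2 fell, and Gabarapl1 fell by 0.24.

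Innate immune genes rose in small number. Of 20 interferon-stimulated genes 4 rose and 0 fell (median 0.12), with 2 to 4 rises when 1 library was left out, the fewest without induced library 2. At an unadjusted p of 0.05, 0 were lower, and DESeq2 and limma-voom called 0 lower. Ddx58, the RNA sensor RIG-I, was at 23.1, 24.1 and 23.4 CPM uninduced and at 28.2, 30.9 and 30.7 CPM induced (log2 0.35, SE 0.06, adjusted p = 1.17e-05). Xaf1 rose from 5.53, 5.86 and 5.38 to 8.94, 7.22 and 7.74 CPM (log2 0.50, adjusted p = 0.000957). In the line with dCas9 alone they had log2 fold changes of 0.17 and 0.30, and the interactions were not called (adjusted p 0.373 and 0.685). Over the 20 interferon-stimulated genes the control induction gave a median of 0.11 and 1 gene higher. At an unadjusted p of 0.05 it gave 7 higher and 0 lower. The interaction called 0 of the 20 in either direction. A core of the interferon response element, TTTC followed by any 2 bases and TTTC again, was found on either strand in the windows of 7 of 14 listed genes (50%) and in 3.99% of all genes with a window. Of 20 NF-kB targets 4 rose and 1 fell. Nfkb2, a subunit precursor, and Tnfaip3, an inhibitor of the pathway, rose by 0.17 and 0.16, and Cxcl1, described above, was the fall. The median of the NF-kB list was 0.08 in both inductions, and the interaction called 0 members higher and 1 lower.

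**Figure D4:**
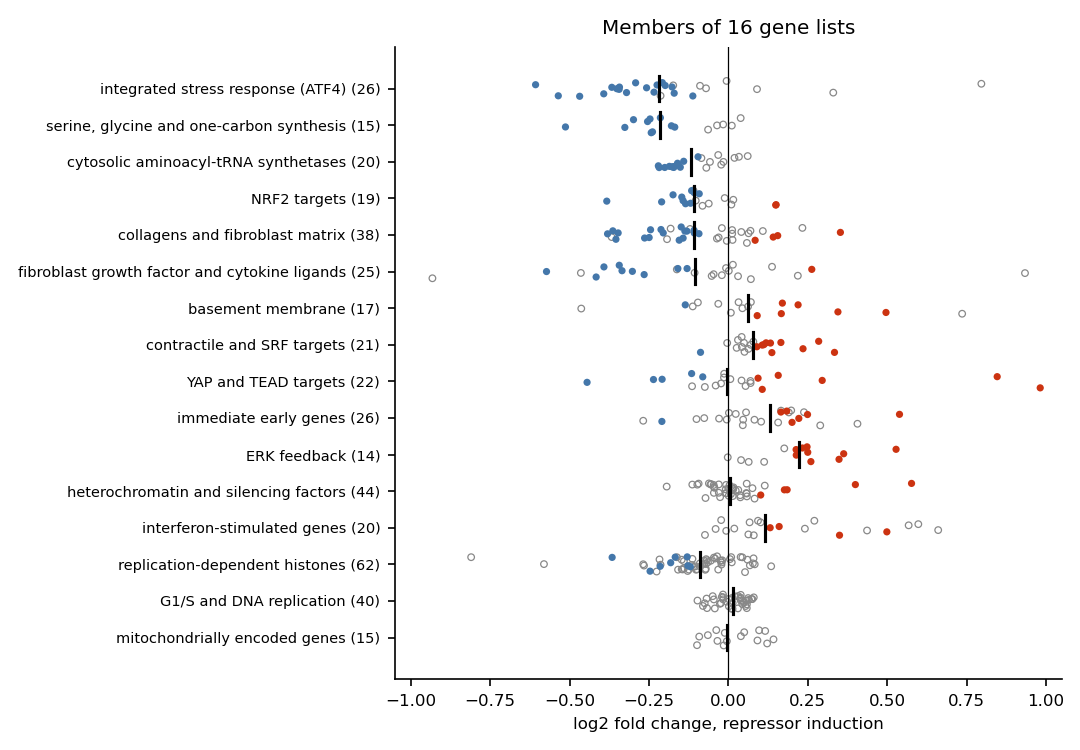
Log2 fold change on repressor induction of the tested members of 16 gene lists, with the number of members in brackets. Each point is 1 gene, filled red or blue where it was called higher or lower and open grey where it was not, and the black bar is the median of the list. The ATF4 and serine lists have medians of −0.22 and −0.21, the ERK feedback list 0.22, and the G1/S list 0.01.

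The 2 lines can be compared gene by gene for the genes with the largest or surest changes. Adgrg1 had an interaction of 2.94 (SE 0.10, adjusted p = 6.59e-39), since the control line was at 15.3, 13.2 and 14.1 CPM uninduced and 15.3, 14.2 and 15.9 CPM induced. Trim24, Slc29a3, Src, Sgms2 and Kif26b had interactions of 0.93, 0.94, 0.52, 0.68 and −0.73. Sytl2 differed by −1.84 (adjusted p = 1.06e-09). Of the 36 genes named by size or p, the interaction was called for 27 and not called for 9. Mmp9, Tigit, Ctsw and Gm10800 were not called (adjusted p 0.217, 0.54, 0.348 and 0.711). Their changes in the 2 lines were 1.47 and 0.39, 1.27 and 0.67, 1.21 and 0.25, and −3.38 and −1.99. Among the largest falls, Col14a1, Gm42534, Abi3bp, Pcdhb20 and Sgpp2 were not called either (adjusted p 0.625, 0.0731, 0.417, 0.452 and 0.19). A missed threshold does not show that these genes acted alike in both lines.

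**Figure D5:**
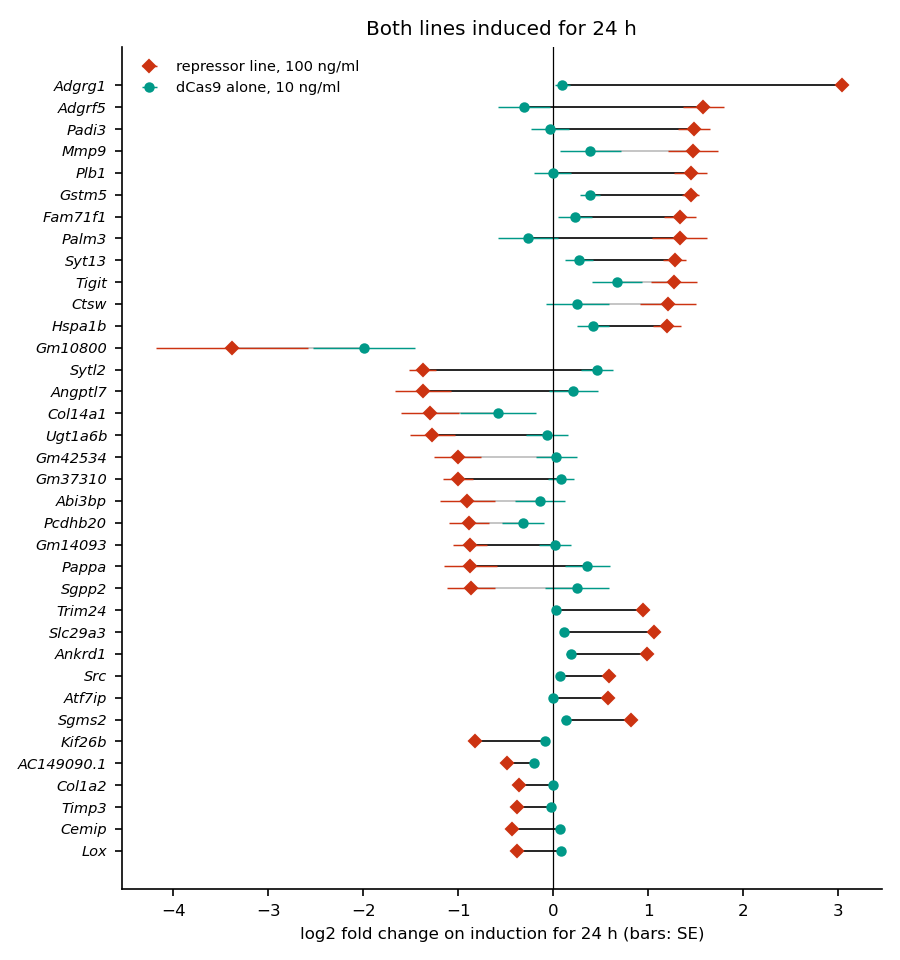
Log2 fold change on induction for 24 h, with bars of 1 SE, for the 36 genes named by size or p, in the repressor line (red diamonds, 100 ng/ml) and in the line with dCas9 alone (green circles, 10 ng/ml). The line between the 2 values is black where the interaction was called and grey where it was not. Adgrg1 has the widest gap, and Gm10800 fell in the repressor line beside a value of −1.99 in the control line that was not called.

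Protein-coding genes held most calls, with 818 higher and 677 lower of 12408 (12%). Over all tested genes 9.81% were called, 5.21% higher and 4.59% lower. TEC models, whose existence awaits experiment, were called less often (3.57% of 840), with 28 lower and 2 higher. Sense-intronic models were 4 lower and 0 higher of 159 (2.52%). Many such models lie inside genes, and without a known strand setting their reads cannot be told apart from host introns. Among 379 lincRNA genes 9 rose and 15 fell (6.33%). Of 171 small nucleolar RNA genes 3 rose and 0 fell (1.75%). Position along the chromosome made little difference. Mouse chromosomes begin at the centromere, beside the satellite, and of 908 genes in the first 10 Mb 53 rose and 48 fell (11.1% called). The shares were 9.12% from 10 to 30 Mb, 9.46% from 30 to 60 Mb and 10.0% beyond.

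Fibroblast markers, led by collagen I, were abundant in both groups and lower after induction. Of 13 fibroblast markers 10 were tested, of which 7 fell and 0 rose (median −0.25). Their sum was 16970 to 17260 CPM in uninduced and 14180 to 14380 CPM in induced libraries, most of it collagen I, and in the control line 16010 to 16330 and 15810 to 16330 CPM. Pdgfra fell from 82.9, 82.5 and 89.6 to 69.5, 71.7 and 73.5 CPM (log2 −0.25, adjusted p = 3.41e-05), and Prrx1, a mesenchymal transcription factor, from 180, 178 and 190 to 151, 141 and 150 CPM (log2 −0.31, adjusted p = 6.97e-13). Thy1, Fap and Lum, also used as fibroblast markers, had only 1, 1 and 13 counts over the 6 libraries. In bulk RNA, fewer cells of a type and less RNA per cell cannot be told apart.

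Of 8 muscle markers 4 were tested and 2 rose. Des, the intermediate filament of muscle, rose from 1.32, 1.16 and 1.09 to 2.72, 2.69 and 2.28 CPM (log2 1.10, adjusted p = 6.99e-05), and Tnnt2, cardiac troponin T, from 4.21, 4.29 and 4.34 to 7.61, 6.03 and 7.37 CPM (log2 0.70, adjusted p = 2.68e-05). The defining muscle genes Myod1, Myog, Actc1 and Pax7 had 0 counts in all 6 libraries. Of 8 neural and glial markers 4 were tested and Tubb3, a neuronal tubulin, rose from 32.6, 35.4 and 34.5 to 52.9, 53.4 and 52.4 CPM (log2 0.63, adjusted p = 2.03e-19), while Sox10, Snap25 and Nefl had 0 counts. Of 8 endothelial markers 2 were tested, and Tek, at 42 counts in all, fell (log2 −1.50, adjusted p = 0.0425), a call kept without uninduced library 1 only. Other markers of these lists were detected and not called: Mbp at 28.8 to 31.6 CPM, Cd68 at 3.67 to 5.13, Csf1r at 1.49 to 3.37, Krt14 at 2.34 to 3.53 and Nanog at 0.539 to 1.52 CPM over the 6 libraries. The summed neural and glial markers were at 63.9 to 69.3 CPM uninduced and 84.7 to 86.2 CPM induced, and the muscle markers at 5.43 to 5.64 and 8.87 to 10.5 CPM. The summed haematopoietic markers were at 6.07 to 7.82 and 6.62 to 7.67 CPM, and the epithelial at 3.69 to 4.46 and 2.99 to 3.50 CPM. The part of these cell types in the results was not tested. Epithelial Epcam, Krt5 and Esrp1, endothelial Cldn5 and Erg, haematopoietic Adgre1, Tyrobp and Laptm5, and pluripotency genes Pou5f1, Sox2, Zfp42 and Dppa4 had 0 counts. The named markers outside the fibroblast list were chosen after their values were seen.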

How the data were processed

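Per the labels' protocols, RNA isolated with TRI Reagent and freed of DNA was made into stranded, rRNA-depleted paired-end libraries. The authors deposited whole-number read counts per gene, not normalized, and per the submitters' processing notes the build was mm10. The labels and notes name no aligner, counter or strand setting (not given in the sources used here), so reads of overlapping, antisense or near-identical genes may be split between them. Symbols came from GENCODE M21, in which 47310 of 47937 IDs were found.

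The model held all 18 libraries and a coefficient for each group (R 4.3.3, edgeR 4.0.16, filterByExpr, TMM factors, robust quasi-likelihood fit), which left 12 residual degrees of freedom and a common biological coefficient of variation of 0.0246. SE is the log2 fold change over the square root of F. CPM used TMM library sizes, and errors are SD of 3 libraries. Total counts were 14928765 to 25262912 per library over the series, and 20271 to 20875 genes had a count in the repressor libraries. Genes of the mitochondrial genome took 0.617% to 0.666% of the counts in the 6 repressor libraries. The fit was tested on simulated counts first.

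Named genes are the 12 largest rises and 12 largest falls among called genes at a mean of at least 1 CPM whose groups did not overlap, the 6 further genes with the smallest p in each direction, 6 interactions in each direction, and up to 3 called genes per list and direction. Not every gene that meets this rule is reported here. The members, the 44 gene lists and 8 marker lists were chosen with earlier results of these data known. DESeq2 1.42.0, limma 3.58.1 with voom, other scalings, other filters, replicate blocks and leaving out each library were tried. The list counts without each library were added after seeing the data. RefSeq promoter windows came from GRCm38.p6, with chromosome 18 left out.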

Additional observations from a re-analysis of the deposited data

Results flagged for a closer look

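The change on induction differed between the repressor line and the line with dCas9 alone for the genes below, by the edgeR interaction test over all 16216 genes. Each value is the log2 change in the repressor line less that in the control line, and the doses differed. Among the largest rises it was 2.94 for Adgrg1, 1.89 for Adgrf5, 1.52 for Padi3, 1.46 for Plb1, 1.59 for Palm3, 1.11 for Fam71f1, 1.06 for Gstm5, 1.01 for Syt13 and 0.78 for Hspa1b. Among the largest falls it was −1.84 for Sytl2, −1.58 for Angptl7, −1.23 for Pappa, −1.21 for Ugt1a6b, −1.08 for Gm37310 and −0.90 for Gm14093. The calls of Palm3, Hspa1b, Angptl7, Ugt1a6b, Gm14093 and Pappa were lost when some single libraries were left out. For genes with small error it was 0.94 for Slc29a3, 0.93 for Trim24, 0.80 for Ankrd1, 0.68 for Sgms2, 0.58 for Atf7ip, 0.52 for Src, −0.73 for Kif26b, −0.51 for Cemip, −0.46 for Lox, −0.36 for Col1a2, −0.35 for Timp3 and −0.29 for AC149090.1.

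Further genes were named for the size of this difference alone and were weakly expressed, so the values rest on few counts. The difference was 2.43 for Olfr56, 2.00 for Glipr1 and 1.65 for Gm10388, which rose in the repressor line. The rise was lost for Olfr56 without uninduced or induced library 1, for Glipr1 without uninduced or induced library 3 and for Gm10388 without uninduced library 2. It was −4.37 for B230317F23Rik, with 17 counts in the uninduced and 1 in the induced repressor libraries, −3.33 for 1700019A02Rik, with 22 and 3, and −2.87 for Gm15372, with 40 and 5. Each of these calls was lost without at least 4 of the 12 libraries. Dact2, an inhibitor of Wnt and Nodal signals, differed by −2.52 and Serpinb1a, an inhibitor of neutrophil proteases, by −1.66. Serpinb1a rose in the line with dCas9 alone (log2 0.99, adjusted p = 0.0187) and fell in the repressor line (log2 −0.67, adjusted p = 0.0421), a fall that was lost without uninduced library 1 or 2 or any 1 induced library.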

How the results depend on the processing

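Most directions held. With the replicate number as a replicate block within each line, 838 genes rose and 778 fell on repressor induction, and with a block across lines 895 rose and 835 fell. Same-numbered libraries of the repressor line did not deviate together (correlations −0.0755, −0.0239 and 0.012). Such values cannot tell whether the libraries were made in pairs, which remains unknown. The block across lines gave 53 falls in the control induction. The block within each line left 30 genes higher and 15 lower between the uninduced lines. With that block the contrast between lines takes the fitted levels of replicate 1 and not the group means. These 2 counts are therefore not comparable with the 140 and 113 of the main fit. DESeq2 called 545 rises on repressor induction, 116 higher in the interaction, 12 rises in the control induction, and 58 higher and 55 lower between the uninduced lines. Scaling by total counts gave 407 falls on repressor induction, 76 rises and 21 falls in the control induction (78.4% higher), and 79 higher between the uninduced lines. Fitting only the libraries of the lines compared gave 1058 rises and 1005 falls on repressor induction, against 845 and 745 in the main fit. It gave 255 higher and 296 lower in the interaction, and 213 higher and 178 lower between the uninduced lines. With 1 library left out, repressor induction gave 600 to 655 rises and 482 to 610 falls, the control induction 12 to 28 rises and 20 to 30 falls, and the uninduced lines 57 to 108 higher and 45 to 82 lower. The cause of the other shifts was not tested. No gene named here changed direction. Of the named genes, 30 lost their call with DESeq2, 18 with total counts, 9 with limma-voom and 20 to 31 without 1 library. The log2 ratio of the satellite sum stayed between −3.02 and −2.77. Depth was not varied. At a mean below 1 CPM 1.56% of genes were called, with a median change of 1.34 on the log2 scale.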

Other observations

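Some gene groups entered no comparison above. Of 17 circadian clock genes edgeR called 3 higher and 0 lower, and Bhlhe40, Per2 and Per3 rose by 0.15, 0.29 and 0.28 on the log2 scale. Each lost its call without some single libraries, and 1 to 3 rose when 1 library was left out. At an unadjusted p of 0.05, 1 clock gene was lower, DESeq2 called 0 higher and 0 lower, and limma-voom called 0 lower. Of 15 host genes of small nucleolar RNA edgeR, DESeq2 and limma-voom called 0, with 4 lower at an unadjusted p of 0.05. Of 2 tested germline genes that DNA methylation silences, edgeR, DESeq2 and limma-voom called 0, and 0 passed an unadjusted p of 0.05.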
